A study of Homo sapiens with 23 samples.

Results

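The 500 longest H3K27me3 domains shared by both H3K27me3 libraries of NCI-H23 cells are described here, out of 42761 shared intervals in all. The members were chosen by measured values, namely the H3K27me3 peak lists themselves. Peaks of each list were joined across gaps of at most 5 kb, the joined intervals of the libraries were intersected, and the 500 longest pieces were taken. H3K27me3 values and lengths of the members therefore only describe what was chosen. All other marks and BRD2 come from separate immunoprecipitations that the choice did not use.

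H3K27me3 is written by the Polycomb repressive complex PRC2, whose catalytic subunit is usually EZH2, and is read by CBX proteins of the complex PRC1. It can form a narrow island over a silent CpG-rich promoter, often together with H3K4me3 in a so-called bivalent state, or a broad domain over silent chromatin. The acetyl group of H3K27ac occupies the same lysine, so a single histone tail cannot carry both marks. H3K36me3, left by SETD2 in the wake of transcribing polymerase, makes a nucleosome a poor substrate for PRC2. H3K9me3, bound by HP1 proteins, marks constitutive heterochromatin, and BRD2 is a BET protein whose bromodomains bind acetylated histone tails.

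NCI-H23 is an established human non-small cell lung cancer line. Chromatin immunoprecipitation with sequencing (ChIP-seq) was performed for 11 targets, 10 histone modifications and BRD2, with 2 libraries each; 1 input sample has no list and was not analysed here. The antibody to H4K5acK8ac, the H4 tail acetylated at lysines 5 and 8 together, was a mouse monoclonal made by the submitters. The treatment protocol shared by all samples names 24 h with the BET inhibitor JQ1 at 500 nM or with DMSO, its solvent. No label says which of these a library received. The labels set the groups apart by target only, and a difference in treatment between libraries could not be told apart from one of target. For H3K9me3 replicate 2 the title and the description disagree on the replicate number, and the number in the title was used. No label says that replicates are separate cultures, so the spread between them may be technical.

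The 22 lists held between 21572 and 277462 peaks and covered between 14.49 and 207.6 Mb. Weak peaks, with a −log10 q under 1.3, made up from 0.348% of a list to 64.7% in BRD2 replicate 1. Read numbers are not given, so depth is unknown. Content is expressed as cover, the percentage of bases under peaks of a list. Values are given for replicates 1 and 2 in that order, or as mean ± SD (n = 2 libraries). With 2 libraries per group the smallest two-sided p of an exact permutation test is 0.33, and domains of one genome are not replicates. No test was made, and differences are set against the spread between libraries.

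The members together spanned 36.68 Mb, or 1.22% of the 3002 Mb between the first and last peaks of chromosomes 1 to 22, X and Y, and 14.39% of the bases of all shared intervals. Their lengths ran from 48723 to 231750 bp with a median of 64630 bp, and the other 42261 intervals had a median of 2320 bp. Lengths fell off quickly: 170 members exceeded 75000 bp, 65 exceeded 100000 bp and 6 exceeded 150000 bp. The threshold cut a continuous range. The 3 members just inside it were chr7:108426689-108475474 (48786 bp), chr5:10013316-10062091 (48776 bp) and chr5:135763994-135812716 (48723 bp). The 3 intervals just outside were chr11:112267958-112316665 (48708 bp), chr18:22939811-22988438 (48628 bp) and chr10:5342671-5391255 (48585 bp).

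The longest member was chr20:54687061-54918810, with 231750 bp in build hg19 of the submitters' processing notes. It held 129 H3K27me3 peaks in replicate 1 and 141 in replicate 2. Next came chr8:135276453-135475816 (199364 bp) and chr5:8165519-8352464 (186946 bp). The other members among the 10 longest were chr2:6852338-7029643, chr5:6796344-6966441, chr12:45351234-45509107, chr12:5860861-6008931, chr5:9773692-9918134, chr3:134505721-134649653 and chr5:37903965-38045918. Thus 4 of the 10 lay on chromosome 5.

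Inside the members H3K27me3 was a dense series of short peaks rather than a single block. A member held 19 to 129 peaks in replicate 1 (median 39) and 26 to 141 in replicate 2 (median 44). Peaks covered 22.94% to 76.43% of a member in replicate 1 (median 43.95%) and 26.74% to 76.53% in replicate 2 (median 47.26%). The members took up 10.15% and 8.84% of the peaks of the H3K27me3 lists, and 19.79% and 23.07% of the 10000 strongest. Cover was level from edge to centre, between 46.88% and 48.02% on average in 5 nested shells of equal width.

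Extents depended on the library. Stitched alone, replicate 1 gave a longest interval of 312843 bp and replicate 2 one of 440225 bp. Of the 500 longest intervals of replicate 1 alone, 412 touched a member, and of those of replicate 2 alone, 314 did. In the other direction, 419 and 353 members touched the 500 longest of replicates 1 and 2. At 308 of the 1000 edges the longer library ended within 1 kb of the shorter, and at another 308 it went on for over 20 kb. The library that went on was replicate 2 at 659 edges and replicate 1 at 341. Many edges are therefore ends of an overlap rather than ends of H3K27me3.

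The members were unevenly spread over chromosomes. Chromosome 2 held 67, chromosome 1 held 54, chromosome 5 held 49, chromosome 12 held 44 and chromosome 8 held 39. Per 100 Mb, chromosome 20 stood highest with 50.87 (32 members), ahead of chromosome 12 with 32.89, chromosome 2 with 27.56, chromosome 5 with 27.12 and chromosome 8 with 26.69. Chromosomes 1, 2, 5, 8, 12 and 20 together carried 285 members (57.0%) on 33.84% of the span. At the low end, the X chromosome held 3 members (1.97 per 100 Mb), chromosome 10 held 4 (2.95), chromosome 4 held 10 (5.24) and chromosomes 21 and 22 held 1 each. This is the distribution of the values that made the choice and was not tested.

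**Figure D1:**
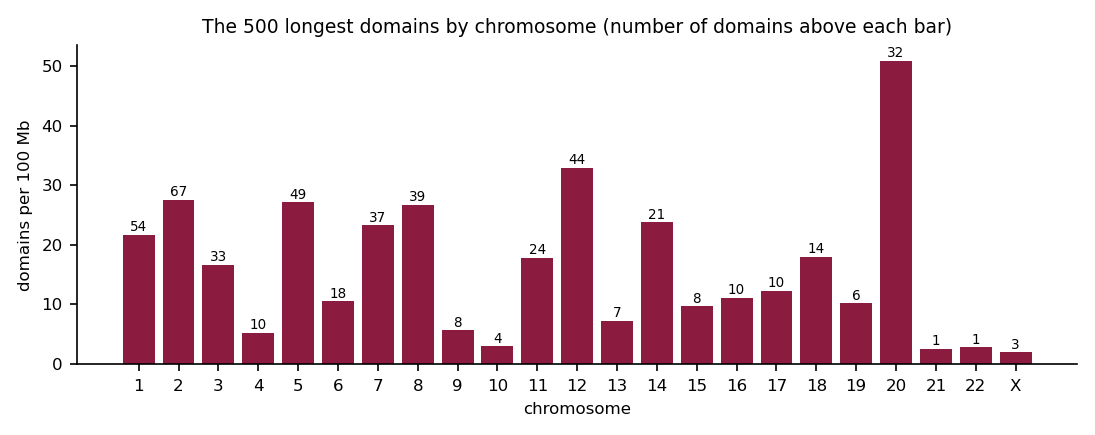
Number of long H3K27me3 domains per 100 Mb of called span (y axis) on each chromosome (x axis), with the number of domains above each bar. Chromosome 20 reaches 50.87 per 100 Mb with 32 domains, and the X chromosome 1.97 with 3.

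Total H3K27me3 and long domains were not distributed in parallel. Chromosome 10 held 4.05% of all shared H3K27me3 bases, close to its 4.51% of the span, yet 2.36% of those bases lay in members. On chromosome 20, with 4.44% of the shared bases on 2.10% of the span, 22.12% lay in members. Chromosomes 8 and 5 had 20.12% and 20.1% of their shared bases in members, and the X chromosome 2.09%.

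H3K9me3, the mark of constitutive heterochromatin, was called in nearly every member. A peak was present in both H3K9me3 lists in 498 of 500 members, and the other 2 had a peak in neither. Members are long, so the fair comparison is by windows of equal length: of 1333 windows of 20 kb lying wholly inside members, 80.87% had a peak in both lists, against 45.7% of all 132163 windows of that length that hold any peak. Cover was 9.80% and 13.09% in the members (mean 11.44% ± 2.33). In the rest of the span it was 4.10% and 5.63% (4.86% ± 1.08), so both values of the members lay above both of the rest. The ratio of members to rest was 2.39 and 2.33 (mean 2.36 ± 0.0469), and that of members to the 20 kb outside their edges 1.89 and 1.88.

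This excess belonged to H3K27me3 intervals of all lengths, and among the length classes compared the longest had the least of it. H3K9me3 cover was 26.2% ± 4.48 in shared intervals under 5000 bp, 18.03% ± 3.43 from 5000 to 10000 bp, 14.95% ± 2.81 from 10000 to 20000 bp, 12.52% ± 2.47 from there to the shortest member and 11.44% ± 2.33 in the members. Both libraries fell at each step. The next 500 shared intervals by length, all in the class before the members, were at 9.27% and 12.18%. The ratio of members to these 500 was 1.057 and 1.075, so the order did not hold between the members and the intervals nearest in length. Over all other shared intervals together the ratio of members to them was 0.657 and 0.674 (mean 0.666 ± 0.0122). The share of bases under H3K27me3 peaks also differed between these classes, at 53.38% in those under 5000 bp, 38.99% from 10000 to 20000 bp and 47.38% in the members, and its part in the order was not tested. Among the members themselves length and H3K9me3 cover were unrelated (Spearman rho −0.0145 over 500 members).

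**Figure D2:**
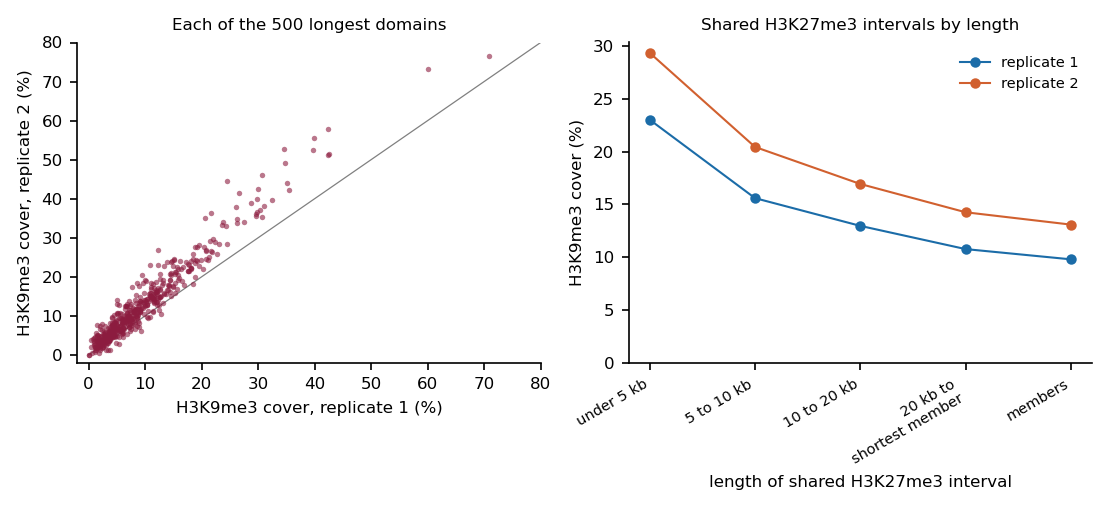
Left, H3K9me3 cover in percent of bases of each of the 500 members in replicate 1 (x axis) and replicate 2 (y axis), 1 point per domain, with the line of equality. Right, H3K9me3 cover (y axis) of shared H3K27me3 intervals by length (x axis), 1 line per library; both lines fall from left to right, from 23.03% and 29.37% to 9.80% and 13.09%.

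Single members varied widely in H3K9me3, and the libraries ranked them alike (Pearson r 0.971, Spearman rho 0.948, across 500 domains that share the 2 libraries). In replicate 1 the lowest value was 0%, the median 7.43% and the highest 70.84%. In replicate 2 these were 0%, 10.08% and 76.67%. At least 25% of the bases were covered in 27 members by replicate 1 and in 49 by replicate 2.

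The member with the most H3K9me3 was chr2:95862282-95936621, at 70.84% and 76.67%. It lay 0.534 Mb from the longest peak-free stretch of its chromosome. It also carried H3K36me3 at 9.33% and 8.86% and 1 H3K4me3 peak in each list. The map of its peaks shows H3K4me3, H3K27ac and BRD2 peaks of both libraries at one place, with H3K36me3 beside it. A further BRD2 peak in each list and a further H3K27ac peak in replicate 1 lay elsewhere in the domain. The next by this measure were chr4:7549937-7598755 with 60.08% and 73.1%, chr7:56245770-56294930 with 42.33% and 57.79%, chr6:57958474-58011599 with 39.88% and 55.53%, and chr20:45096031-45146337 with 42.54% and 51.51%. Of these 5, the 3 on chromosomes 2, 6 and 7 lay within 5 Mb of the longest peak-free stretch of their chromosome.

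At the other end, among members of at least median length, chr14:79167629-79238135 and chr3:35748190-35816080 had no H3K9me3 peak in either list. Their H3K27me3 cover was 37.48% and 43.19% for the former and 22.94% and 30.81% for the latter, which is the lowest of all members in replicate 1. Low H3K9me3 was also found in chr17:32210323-32275448 (1.06% and 1.28%), its neighbour chr17:32096209-32203860 (1.09% and 2.06%) and chr3:38783453-38878984 (1.46% and 1.67%). The chromosome 17 pair had H3K27me3 cover of 49.65% to 55.12%, above the median of the members, so low H3K9me3 also occurred where H3K27me3 cover was high. Over all members the Spearman rho of the 2 covers was 0.391.

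H3K9me3 and H3K27me3 were called over the same bases more than their separate cover would give. Inside members 79.87% to 83.03% of the H3K9me3 bases lay under an H3K27me3 peak, over the 4 combinations of libraries, against 45.67% and 49.08% of all member bases. H4K12ac behaved likewise (72.11% to 77.52%), as did BRD2 (65.92% to 70.44%) and H3K4me1 (57.52% to 68.94%). For H3K4me3 the range was 50.9% to 67.63%, which overlapped those of BRD2 and H3K4me1. The peaks of H4K12ac and BRD2 inside members were weak by the authors' values, as given below, and the part of shared weak calls in these overlaps was not tested.

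Peaks of H3K36me3, a mark of transcribed gene bodies, were nearly absent. H3K36me3 covered 0.0216% and 0.0199% of the members and 7.00% and 6.77% of the rest, a ratio of 0.00302 ± 0.000105. Both lists had a peak in 2 members, and 497 members had none in either list. Of the 20 kb windows inside members 0.150% had a peak in both lists, against 21.5% of all windows. The 2 members were the domain on chromosome 2 with the most H3K9me3 and chr20:45096031-45146337, where cover was 1.99% and 0.791%. This low level was not particular to long domains by these values: the other shared intervals were at 0.0821% ± 0.000915 and the next 500 by length at 0.000855% ± 0.00121.

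**Figure D3:**
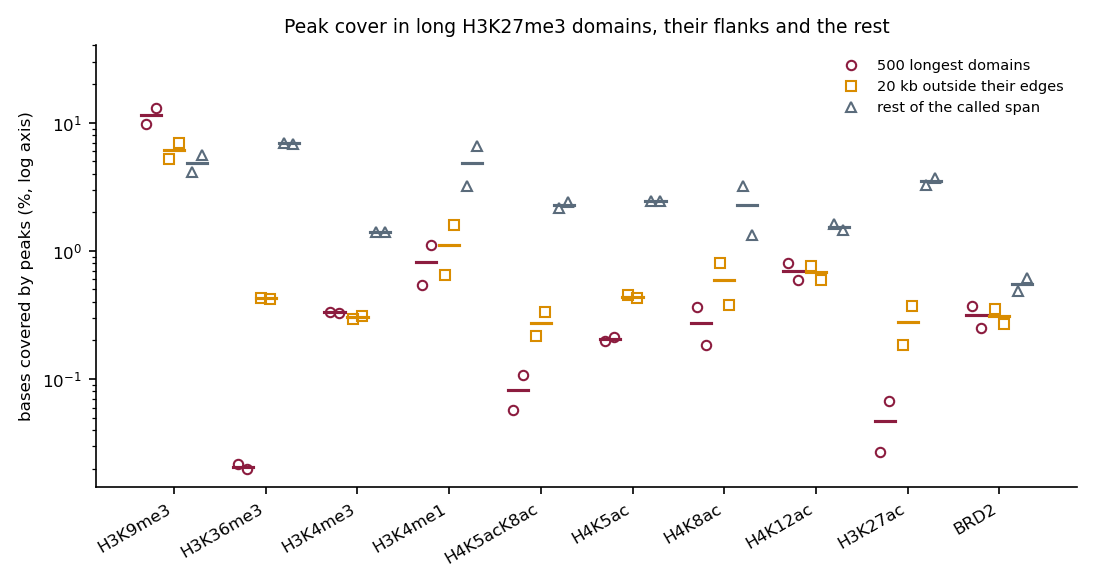
Percentage of bases covered by peaks (y axis, log scale) for each target (x axis) inside the 500 domains (circles), in the 20 kb outside their edges (squares) and in the rest of the called span (triangles); each symbol is 1 library and each bar the mean of 2. For H3K9me3 the domains lie highest, for H3K36me3 and H3K27ac they lie lowest by the widest distance, and for BRD2 domains and flanks overlap.

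H3K27ac, the acetylated form of the same lysine, was also rare. Its cover was 0.0269% and 0.0670% in members, 0.184% and 0.375% in the flanks and 3.29% and 3.68% in the rest. The groups did not overlap, and the ratio of members to flanks was 0.163 ± 0.0231. The next 500 shared intervals by length were at 0.0199% and 0.0809%, so the low level was not particular to the members. Both lists had a peak in 10 members. Inside members 0.375% of 20 kb windows had one, against 23% of all windows.

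The members with the most H3K27ac were few and differed in kind. In chr1:158116180-158167472 cover was 2.52% and 2.43%, with H3K4me3 at 6.16% and 5.96%, H4K8ac at 6.92% and 7.57% and BRD2 at 1.56% and 2.53%. The H3K9me3-rich chr2:95862282-95936621 reached 2.07% and 2.12%, and chr20:45096031-45146337 1.28% and 2.04%. By contrast, chr2:50631349-50696335 had 0% and 3.18% and chr2:49103043-49210924 had 0% and 2.99%. The last 2 thus rest on replicate 2 alone.

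The acetyl marks of histone H4 were low in the members to differing degrees. The doubly acetylated form H4K5acK8ac covered 0.0574% and 0.108% of the members, against 0.218% and 0.331% of the flanks and 2.17% and 2.42% of the rest. H4K5ac covered 0.199% and 0.213% of the members and 0.453% and 0.426% of the flanks. H4K8ac covered 0.363% and 0.185% of the members and 0.805% and 0.380% of the flanks, a wide spread between libraries that still left both values of the members just below both of the flanks. H4K12ac did not follow the others, with 0.804% and 0.588% in members and 0.766% and 0.597% in flanks, a ratio of 1.02 ± 0.0469. Averaged over the 5 acetyl marks the ratio of members to flanks was 0.470 and 0.495 (mean 0.483 ± 0.0178), and that of members to rest 0.145 and 0.138. With a gap of 10000 bp in stitching the ratio to flanks was 0.265. Against the next 500 shared intervals by length the ratios were 0.894 ± 0.0816 (H4K5acK8ac), 1.006 ± 0.0295 (H4K5ac), 0.986 ± 0.0937 (H4K8ac) and 1.035 ± 0.0229 (H4K12ac). By these values the low H4 acetylation was not particular to the members.

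Counts of members gave the same order. H4K5acK8ac had a peak in both lists in 24 members, H4K5ac in 80, H4K8ac in 88 and H4K12ac in 296. In 20 kb windows the shares inside members were 0.750%, 3.75%, 4.43% and 17.85% in that order, below the shares of all windows, which were 21.7%, 26.3%, 28.3% and 24.6%. H4K12ac peaks inside members were weak: 2.81% and 2.3% reached a −log10 q of 5, against 22.75% and 20.29% elsewhere. This was not particular to H4K12ac. For H4K5ac the shares were 7.3% and 7.0% inside, against 30.63% and 33.45% elsewhere. For H4K8ac they were 4.46% and 2.77%, against 16.67% and 5.86%, and for H4K5acK8ac 30.43% and 41.43%, against 50.35% and 57.31%. Of the 296 members, 106 had bases called in both H4K12ac lists, so most joint calls were peaks at different places of a domain. Such shared bases were found in 39 of the 80 members for H4K5ac, 36 of the 88 for H4K8ac and 23 of the 24 for H4K5acK8ac.

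BRD2 peaks inside members were almost always weak. The BRD2 lists had 693 and 422 peaks in members. This was 18.89 and 11.5 per Mb, against 18.93 and 15.23 per Mb of the called span. Both lists had a peak in 191 members. The 2 lists shared bases in 14 members. Cover was 0.375% and 0.252% in members, 0.353% and 0.270% in flanks and 0.484% and 0.615% in the rest. Members and flanks overlapped, with ratios of 1.06 and 0.935 (mean 0.998 ± 0.0893). Of 20 kb windows inside members 96 of 1333 had a BRD2 peak in both lists (7.2%), against 12.4% of all windows.

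Among BRD2 peaks with a −log10 q of at least 5, which both lists hold in larger numbers elsewhere, the members had 5 and 8. These were 0.722% and 1.90% of the BRD2 peaks inside, against 8.49% and 27.55% of those elsewhere. With such peaks alone the ratio of members to flanks was 0.541 ± 0.280. Across members the BRD2 cover of the libraries was nearly unrelated (Pearson r 0.187, against 0.993 for H3K4me3), so BRD2 levels of single members were not read further.

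H3K4me3, the promoter mark, was present in a minority of the domains. Both lists had a peak in 83 members, and 407 had none in either. Inside members 4.58% of 20 kb windows had a peak in both lists, against 14.5% of all windows. Cover was 0.335% and 0.329% in the members and 1.40% and 1.39% in the rest, a ratio of 0.238 ± 0.00282. The next 500 shared intervals by length were close to the members, at 0.374% and 0.377%. Against the flanks, at 0.294% and 0.311%, the ratio was 1.14 and 1.06 (mean 1.10 ± 0.0585). It did not hold its side of 1: it was 0.427 with a gap of 10000 bp and 0.708 with the 500 longest intervals of H3K27me3 replicate 2 alone.

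Regions called in both H3K4me3 lists numbered 98 in members. There was 1 in 72 members, 2 in 7 and 3 in 4. They were shorter than those outside all shared H3K27me3 intervals, with a median width of 1124 bp against 1791 bp over 19397 regions. The 1782 regions in the other shared intervals lay between, at 1328 bp. The authors' fold enrichment of H3K4me3 peaks, a value of each list, had medians of 17.76 and 18.18 in members and 61.92 and 67.8 elsewhere. Of the 98 regions, 83 (84.69%) overlapped H3K27me3 in both lists. This share is partly set by the choice of the domains and is a description.

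The marks at these 98 regions set them apart from regions outside. H3K4me1 was called in both lists at 87.76% of them, near the 83.87% outside. H3K27ac was called at 7 (7.14%) against 82.21% outside, and BRD2 at 7 (7.14%) against 52.89%. H4K5acK8ac was called at 18.37% against 86.92%. H4K12ac was called at 44.9% against 78.62%, the acetyl mark with the smallest gap of these 3. The 1782 regions in the other shared intervals lay between for H3K27ac (22.95%), H4K5acK8ac (45.96%) and H4K12ac (55.61%). For BRD2 they were at 7.97%, near the value in members, so low BRD2 was not particular to the members. H3K9me3 was called at 18.37% of the regions in members, against 10.89% in the other shared intervals and 1.57% outside. The regions in members share 2 libraries per mark and are no replicates, and the differences were not tested.

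Around these regions H3K27me3 was denser on or within 1 kb of the region than farther away. Its cover was 48.31% and 63.94% on the region itself, 61.48% and 62.24% within 1 kb beside it, 48.15% and 49.24% from 1 to 2 kb and 40.92% and 45.47% from 5 to 10 kb. The libraries differed on the region itself, where replicate 1 was lower than beside it and replicate 2 was not. H3K9me3 was lowest on the region, at 6.49% and 7.09%, and was 13.86% and 16.21% within 1 kb beside it. Domains with and without H3K4me3 hardly differed in H3K9me3 cover (11.15% ± 2.03 in 83 and 11.51% ± 2.39 in 417). Those with it had a median length of 69652 bp, against 63847 bp.

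The 5 members with the most H3K4me3 were led by chr10:106375591-106441877, at 7.55% and 7.59% of its bases in 2 peaks per list. It had no H3K27ac peak, while H3K4me1 covered 3.10% and 9.07%. The second was chr1:158116180-158167472, described above for its acetylation, with 3 peaks per list. It was the exception among the 5. The others, chr18:31787520-31836446 (5.44% and 5.89%), chr18:5889566-5943939 (5.13% and 4.98%) and chr20:13174266-13224016 (4.74% and 4.81%), had no H3K27ac peak in either list.

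**Figure D4:**
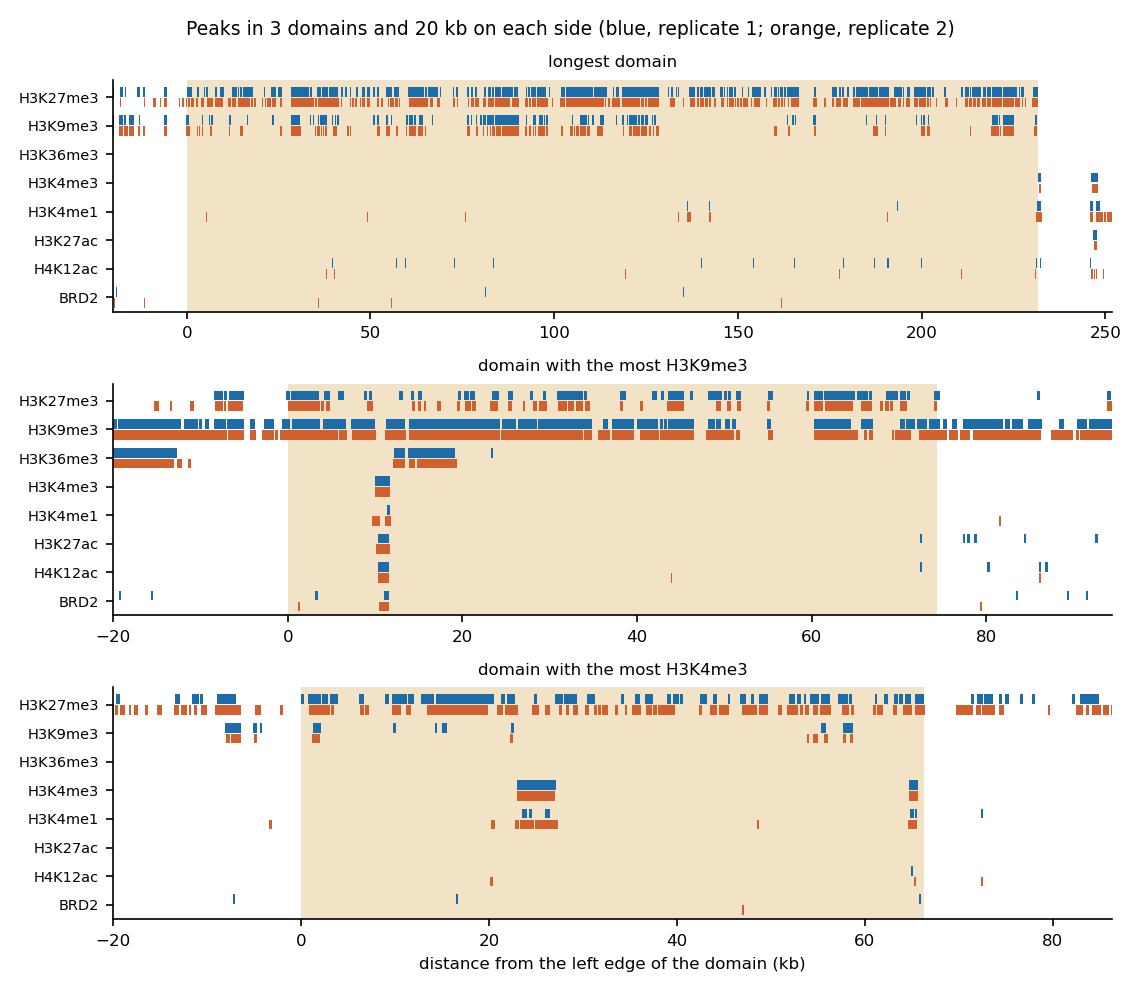
Peaks of 8 targets (rows; blue, replicate 1; orange, replicate 2) in 3 domains (shaded) and 20 kb on each side, against the distance in kb from the left edge of the domain (x axis): the longest, the one with the most H3K9me3 and the one with the most H3K4me3. The longest has 129 and 141 H3K27me3 peaks and H3K4me3 just past its right edge, the second is covered by H3K9me3 at 70.84% and 76.67%, and the third has H3K4me3 peaks without H3K27ac.

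H3K4me1, found at enhancers and beside promoters, covered 0.542% and 1.11% of the members, 0.648% and 1.58% of the flanks and 3.22% and 6.56% of the rest. The ratio of members to flanks was 0.836 and 0.701 (mean 0.769 ± 0.0951), below 1 in both libraries, while the covers of members and flanks overlapped between libraries. With a gap of 10000 bp the ratio was 0.428. The next 500 shared intervals by length had nearly the cover of the members, at 0.541% and 1.10%. Both lists had a peak in 207 members. In 20 kb windows the share inside was 13.73%, against 34% of all windows. Cover was 1.66% and 2.95% in the 83 members with H3K4me3 and 0.296% and 0.704% in the other 417, and across members the 2 covers had a Spearman rho of 0.536.

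Outside the edges, H3K27me3 resumed after a short break. Its cover was 47.04% ± 1.58 in the first 5 kb inside, 6.10% ± 4.20 in the first 5 kb outside and 31.47% ± 2.56 from 10 to 20 kb outside. The break is made by the rule, since a gap of over 5 kb in at least 1 list ends a domain. Another shared interval lay within 20 kb of 939 edges, and another member within 20 kb of 118. Shared intervals could be as short as 1 bp, and the share of all 20 kb windows that hold one was not computed. These counts therefore only describe the edges.

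H3K9me3 showed the same break without being part of the rule. Its cover was 11.24% ± 2.48 in the first 5 kb inside, 2.46% ± 0.590 in the first 5 kb outside and 7.76% ± 1.61 from 10 to 20 kb outside. Both libraries had the dip. It falls where H3K27me3 peaks are missing by choice, and the overlap of the 2 marks given above moves with it; the part of that overlap in the dip was not tested.

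H3K36me3 rose with distance instead. It covered 0.0581% ± 0.00383 in the first 5 kb outside, 0.258% ± 0.0116 from 5 to 10 kb, 0.610% ± 0.00593 from 10 to 20 kb and 1.77% ± 0.0142 from 40 to 50 kb, still below the 6.89% ± 0.161 of the rest. The nearest H3K36me3 peak outward was at a median distance of 540.2 kb in replicate 1 and 532.8 kb in replicate 2. For H3K27ac these medians were 314.1 and 260.2 kb, for H3K4me3 211.6 and 200.3 kb, and for H3K9me3 12.18 and 10.54 kb. The H3K9me3 distance depended on weak peaks: with peaks at a −log10 q of at least 5 its medians were 41.36 and 24.83 kb. For the other marks these were 601.0 and 613.9 kb (H3K36me3), 396.3 and 298.8 kb (H3K27ac) and 234.8 and 226.9 kb (H3K4me3).

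**Figure D5:**
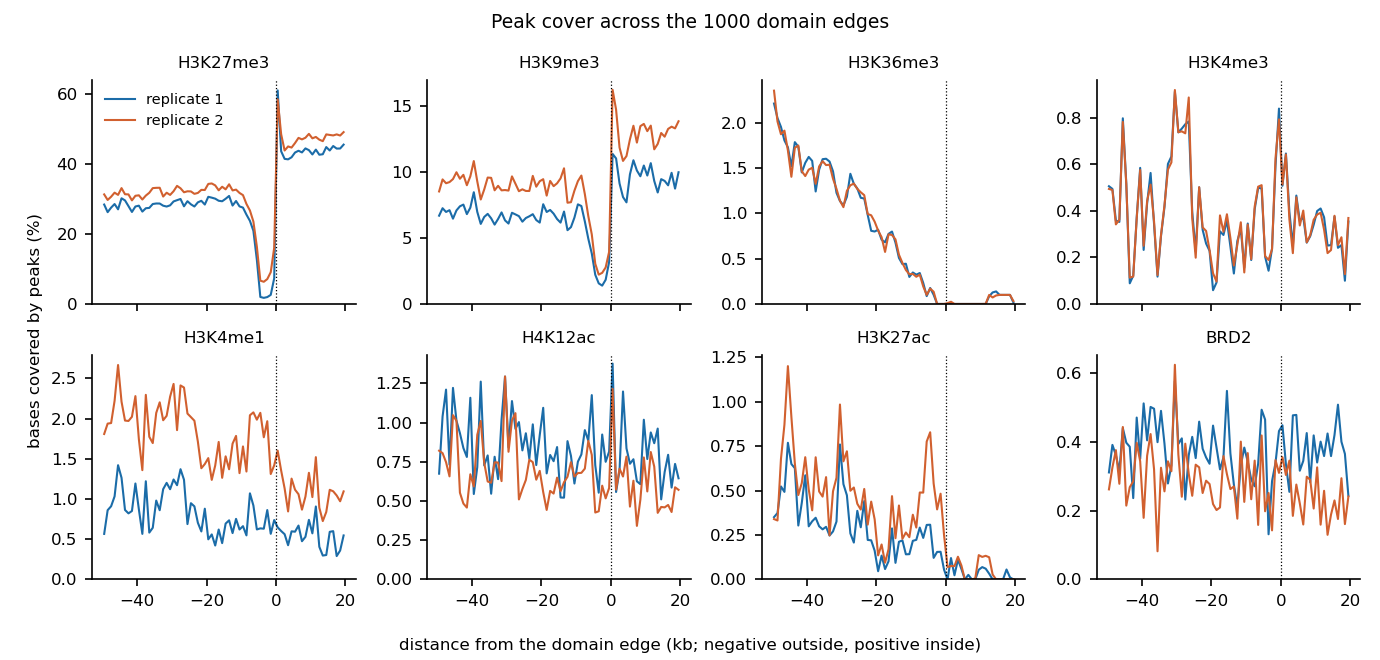
Percentage of bases covered by peaks (y axis, own scale in each panel, from 0) against the distance from the domain edge in kb (x axis, negative outside, positive inside), averaged over 1000 edges in steps of 1 kb, 1 line per library. H3K27me3 and H3K9me3 drop in the 5 kb outside the edge (to 6.10% and 2.46% on average), and H3K36me3 climbs with distance to 1.77% at 40 to 50 kb.

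Active marks were uncommon in the 20 kb outside. Bases of other members, present at 118 edges, were kept in these windows. H3K4me3 had a peak there in both lists at 54 of the 1000 edges (5.4%), and at 5.7% and 6.4% in single lists (mean 6.05% ± 0.495). The share of all 20 kb windows was 14.5%, as given above, and that of windows inside members 4.58%. Of the 500 members, 447 had such H3K4me3 at neither edge, 52 at 1 edge and 1 at both. H3K27ac was present at 39 edges (3.9%), H3K36me3 at 18 (1.8%), H4K5acK8ac at 52 (5.2%), H4K5ac at 90, H4K8ac at 95, H4K12ac at 156 (15.6%), BRD2 at 73 (7.3%) and H3K4me1 at 169 (16.9%). The H3K9me3 count of 635 edges (63.5%) was the single one above the share of all windows, 45.7%.

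Sorted into classes by peaks in both lists, 522 edges (52.2%) had H3K9me3 without H3K4me3, H3K27ac, H3K36me3 or H3K4me1, against 31.28% of all windows. None of the 5 was present at 276 edges (27.6%), near the 25.74% of all windows. A further 116 (11.6%) had H3K4me1 without H3K4me3, H3K27ac or H3K36me3, against 7.95% of all windows. H3K27ac or H3K36me3 without H3K4me3 was found at 32 (3.2%), against 20.57%. Among the 10 longest members, the right flank of chr20:54687061-54918810 held H3K4me3 and the left flank of chr5:6796344-6966441 held H3K36me3, in both lists each; no other edge of these 10 had either mark in both lists.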

How the data were processed

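Lists were used as deposited, 1 narrowPeak list per library; the submitters' processing notes name BWA, MACS2 and build hg19, with no versions or settings, and no pooling is stated. The deposited fold of each peak is a ratio over local background, the deposited −log10 p and −log10 q give its significance, and the deposited score and summit offset were not used. Fold and q are the authors' values and were used within a list only. The members and lists were chosen with earlier results of these data known. Stitching, intersection and cover on chromosomes 1 to 22, X and Y used numpy 2.4.6 and pandas 2.3.3 under Python 3.11.15, with correlations from scipy 1.17.1 and figures from matplotlib 3.10.9; interval functions were tested on simulated data (50 sets, 0 differed from base-by-base answers). Any overlap of at least 1 bp counted. Flanks are the 20 kb outside each edge without member bases, and the rest is the called span without members. The 20 kb windows counted at single edges kept the bases of other members. Named regions are the 10 longest, the 5 highest and 5 lowest (the latter among members of at least median length) in mean H3K9me3, the 5 highest in H3K4me3 and in H3K27ac, and 3 on each side of the length threshold. The gene tables given are of GRCh38.p14 and not of the lists' build, so genes and sequences were not analysed here. Replicate lists differed for all 11 targets. Alternatives were other gaps, numbers of members, q thresholds, windows, autosomes, left-out libraries and same-numbered libraries. Depth is unknown, so no interval was computed.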

Additional observations from a re-analysis of the deposited data

How the results depend on the processing

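Ratios of members to flanks or rest, and the share of edges with H3K4me3, were recomputed under 82 alternatives fixed with the design; 44 stayed within 1 SD of the 2 libraries and 38 moved by more, and the cause was not tested. Of the 44, 12 left out a library of the target, where that outcome is given by the arithmetic of 2 values. With a gap of 2500 bp the values were 3.24 (H3K9me3 over rest), 0.879 (H3K4me3 over flanks), 0.460 (acetylation), 1.28 (BRD2) and 6.7% of edges. With a gap of 10000 bp they were 1.91, 0.427, 0.428 (H3K4me1), 0.265, 0.795 and 8.6%. With 250 members H3K4me3 was 0.896, acetylation 0.442 and BRD2 0.870, and with 1000 members H3K4me3 was 0.905 and acetylation 0.444. On autosomes H3K9me3 was 2.29. With other peaks at a −log10 q of at least 5, H3K9me3 was 2.14, acetylation 0.334, BRD2 0.541 and edges 5.35%. Windows of 10 kb gave H3K4me3 0.802, acetylation 0.428 and edges 3.95%, and windows of 50 kb gave 0.791, 0.370 and 15.1% with H3K4me1 at 0.583. H3K9me3, H3K4me1 and acetylation kept their side of 1 under every alternative run; H3K4me3 and BRD2 did not.

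Leaving out a library of H3K27me3 or of the target gave 1.97 to 2.39 for H3K9me3, 0.708 to 1.14 for H3K4me3, 0.684 to 0.836 for H3K4me1, 0.363 to 0.495 for acetylation, 0.935 to 1.07 for BRD2 and 5.7% to 6.75% of edges. No label says that a replicate number marks a shared culture or day. For 55 target pairs, deviations of cover across members correlated at −0.374 to 0.299 (median −0.0209), with 7 pairs above 0.1. Whether some targets share a batch was not tested. Under the replicate block (domains of each H3K27me3 library read with the target library of the same number) the values were 2.12, 0.796, 0.700, 0.411, 1.03 and 6.5% in the same order.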

Other observations

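Many members lay near another member, and no run count of another set was made for comparison. Joined where at most 100 kb apart, they formed 341 runs, of which 91 held at least 2 members and together 250 of the 500. The run with the most members was chr11:126501261-127142043, with 7 members filling 437086 of its 640783 bp. The next was chr5:15737753-16334862 with 6 members. Chromosome 2 had chr2:48974956-49515905, where 5 members filled 463993 of 540950 bp. The 341 runs belong to the 100 kb distance chosen and are not a count of separate broad regions. Whether runs reflect the 5 kb gap was not tested.

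H3K9me3 cover of members differed with their place on the chromosome. In the 39 members within 5 Mb of the longest peak-free stretch of their chromosome it was 16.51% and 21.8%. In the 18 within 5 Mb of an end of the called span it was 12.5% and 17.66%. In the other 443 it was 9.15% and 12.21%. By chromosome it was highest in the 6 members on chromosome 19, at 19.14% and 24.18%, and lowest in the single member on chromosome 22, at 4.26% and 5.70%. The 24 members on chromosome 11 were at 5.14% and 7.56%. H3K9me3 cover outside the members at these places is not given for comparison, so the values only describe the members.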
